A study of Mus musculus with 6 samples.

Results

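The α1, α2 and β1 subunits of the collagen-binding integrins were followed in the skin of mice with GVHD, with or without adoptive transfer of CpG-proBs. Their genes, Itga1, Itga2 and Itgb1, are 3 of the 84 genes of interest on a custom qRT-PCR plate, and were taken by name, as the subunits of the receptors α1β1 and α2β1. The samples came from 6 female Balb/c mice, irradiated at 5.8 Gy at 10 weeks of age and grafted with 5000000 bone marrow cells depleted of T and B cells and 1000000 splenocytes of C57BL/6 origin. The 3 GVHD controls (animals 1 to 3) received nothing more, as far as the labels state, and the 3 CpG-proB recipients (animals 4 to 6) also received 750000 CpG-proBs, B-cell progenitors activated with the TLR-9 agonist CpG. The day of transfer is not stated for these 6 animals. The paper gives a PBS injection for GVHD controls scored for symptoms, but does not state it for these controls. Back skin (2 cm2) was taken at day+70, in the chronic phase of this model, in which the skin becomes sclerodermatous. All animals were grafted, so neither group represents healthy skin. The comparison asks whether the transfer altered genes of fibrosis and immunity in this tissue.

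Integrins are transmembrane receptors made of 1 α and 1 β chain, and the α chain largely sets which ligand is bound. Both α1 and α2 carry an inserted domain that holds the triple helix of collagen, and neither reaches the cell surface without the β1 chain. The receptor α1β1 is typical of fibroblasts, smooth muscle, small vessels and resident T cells, whereas α2β1 is typical of keratinocytes, fibroblasts and platelets. In fibroblasts, α1β1 is known to restrain collagen synthesis, while α2β1 mediates the contraction of collagen and the induction of collagenase. The β1 chain also pairs with many other α chains, including receptors of fibronectin and laminin, so its mRNA is not specific to collagen receptors. The plate held no other collagen-binding α chain.

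Itga1 and Itga2 are both on chromosome 13, where they are direct neighbours in the RefSeq gene table of GRCm38.p6 (protein-coding order Mocs2, Itga2, Itga1, Pelo), and Itgb1 lies on chromosome 8 between Nrp1 and Ccdc7a. The primer pair of Itga1 spans exons 11 to 12 with a product of 97 bp, that of Itga2 spans exons 4 to 5 with 101 bp, and that of Itgb1 spans exons 14 to 15 with 135 bp. The plate map describes the well of Itga2 as integrin alpha 2b, a platelet integrin that does not bind collagen, but its symbol, transcript and chromosome are those of Itga2. The promoters are shown because they set the neighbouring α genes beside the gene of their shared partner. Each sequence runs 5′ to 3′ on the strand of the gene, from 250 bases before to 50 bases after the RefSeq start, with a GC box (GGGCGG on either strand) in capitals where present.
Itga1, chr13:115101915-115102214, minus strand, GRCm38.p6: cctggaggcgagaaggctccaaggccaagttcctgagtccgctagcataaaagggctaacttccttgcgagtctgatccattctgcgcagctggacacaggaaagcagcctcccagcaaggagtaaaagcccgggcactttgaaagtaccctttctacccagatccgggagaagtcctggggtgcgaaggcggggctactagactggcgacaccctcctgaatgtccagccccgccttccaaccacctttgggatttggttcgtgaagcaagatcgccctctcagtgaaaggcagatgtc
Itga2, chr13:114932051-114932350, minus strand, GRCm38.p6: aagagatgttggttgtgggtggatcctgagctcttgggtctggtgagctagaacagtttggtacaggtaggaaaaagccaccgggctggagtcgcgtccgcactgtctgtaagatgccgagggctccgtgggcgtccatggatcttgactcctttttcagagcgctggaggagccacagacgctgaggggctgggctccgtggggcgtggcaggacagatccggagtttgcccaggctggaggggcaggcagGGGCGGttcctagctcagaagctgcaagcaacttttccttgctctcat
Itgb1, chr8:128685404-128685703, plus strand, GRCm38.p6: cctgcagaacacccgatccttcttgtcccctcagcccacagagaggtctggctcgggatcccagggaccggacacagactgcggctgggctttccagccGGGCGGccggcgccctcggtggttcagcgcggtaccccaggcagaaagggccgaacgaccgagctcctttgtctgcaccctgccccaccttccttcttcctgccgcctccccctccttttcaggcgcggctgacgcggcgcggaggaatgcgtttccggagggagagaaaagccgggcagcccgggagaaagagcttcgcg

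The promoter of Itgb1 had the most CpG dinucleotides of the 3, with 27, against 12 for Itga1 and 13 for Itga2, where the median over 32851 promoters was 7. Its GC content was 67.3%, compared with 56.7% for Itga1, 59.3% for Itga2 and a median of 52.7%. A GC box was found once in Itgb1, before the start, and once in Itga2, after the start, but not in Itga1, and 35.7% of all promoters held one. The AP-1 motif TGANTCA was found in none of the 3 windows and in 7.81% of all promoters. The SMAD motif CAGAC was found once in Itga1 and 3 times each in Itga2 and Itgb1, and 49.6% of all promoters held it. These matches describe letters in a window and were not measured as binding.

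The readout of a well was its Ct, the number of PCR cycles after which the fluorescence passed a fixed level, so that a lower Ct means more cDNA. In the GVHD controls, the Ct of Itga1 was 26.18, 28.33 and 26.17, and in the CpG-proB recipients it was 26.25, 26.02 and 25.47. For Itga2, the controls had 26.57, 27.54 and 26.50 and the recipients 26.25, 26.46 and 28.07. For Itgb1, the controls had 22.79, 24.68 and 23.42 and the recipients 22.67, 23.25 and 23.92. Control 2 had the highest Ct of the 6 animals for Itga1 and Itgb1, and recipient 6 the highest for Itga2. Control 2 also had the highest median Ct over the genes of interest, at 27.66, where the other animals ranged from 25.72 to 26.68. Without any reference, no subunit differed between the groups beyond the spread of the animals, with a difference in Ct (recipients minus controls) of -0.98 for Itga1, 0.0567 for Itga2 and -0.35 for Itgb1 (exact permutation p = 0.3, 1 and 0.6, two-sided). With 3 animals per group, this test cannot go below 0.1.

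**Figure D1:**
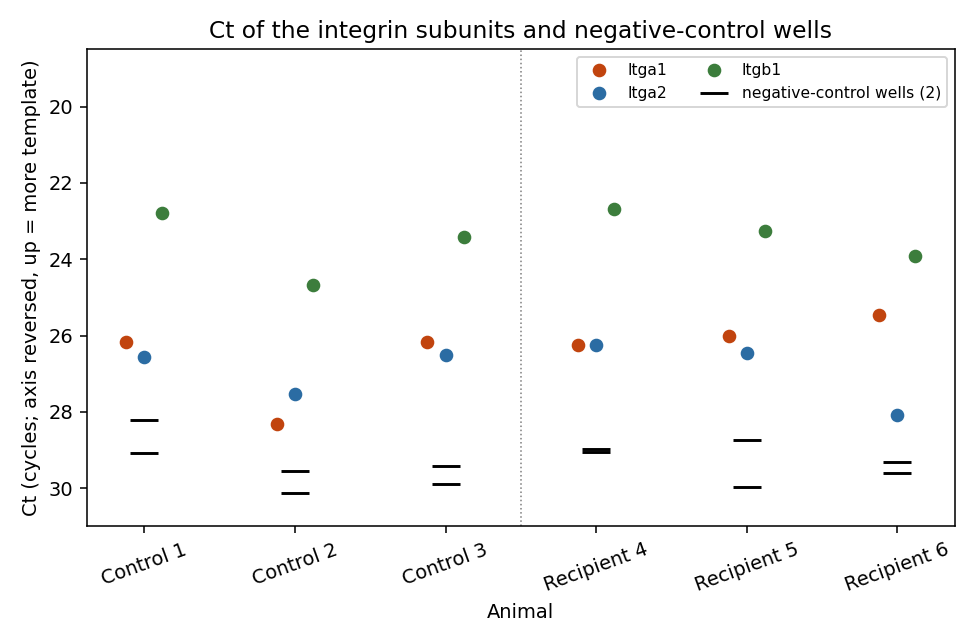
Ct (cycles, reversed axis) of Itga1, Itga2 and Itgb1 in each animal, with the 2 negative-control wells of that animal as black dashes. Itgb1 lies between 22.67 and 24.68 in every animal, ahead of both α subunits, and the negative-control wells lie between 28.21 and 30.13.

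Itgb1 had one of the lowest mean Ct values of the plate, rank 8 of 82, while Itga1 and Itga2 had ranks 42 and 49. These ranks are of raw Ct over primer pairs of different product length and unmeasured efficiency, and do not order abundance. The negative-control wells crossed the threshold at 28.21 to 30.13 and the positive-control wells at 18.04 to 19.15. Itgb1 preceded the earliest negative-control well of the same animal by 4.87 to 6.30 cycles. The margin of Itga1 was 1.22 to 3.85 cycles and that of Itga2 was 1.25 to 2.93 cycles, so the α subunits were measured much nearer to the background than their partner. The narrowest margins belonged to control 2 for Itga1 (1.22 cycles) and recipient 6 for Itga2 (1.25 cycles). Control 2 was also the one animal in which a subunit, Itga1, had a Ct past 28.21, and 35 of the 82 genes tested did so in at least 1 animal.

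To compare the groups at equal amounts of template, −ΔCt was taken by subtracting each gene's Ct from the average of 6 house-keeping genes, which gives a log2 value that is higher with more mRNA. That mean was 21.3, 22.9 and 22.2 in the controls and 21.7, 22.7 and 23.0 in the recipients, so that the groups differed by 0.293 cycles (exact permutation p = 0.6). A gene was called at the threshold of the study, which requires 1.4-fold or more and p at or under 0.05 before adjustment, here from limma. The tissue was skin in bulk, in which fewer cells of a type and less mRNA per cell cannot be told apart.

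Itga1 was the only subunit called, with 2.42-fold higher expression in CpG-proB recipients. Its −ΔCt was -4.84, -5.39 and -3.97 in the controls and -4.59, -3.31 and -2.49 in the recipients. Recipients 5 and 6 were above every control, but recipient 4 was below control 3, so the groups overlapped. The means were -4.74 ± 0.72 and -3.46 ± 1.06 (SD, n = 3 each), a log2 fold change of 1.27 with a standard error of 0.60 and a 95% interval from 0.011 to 2.53. limma gave p = 0.0483, or 0.284 after adjustment over the plate, and the exact permutation test gave p = 0.2. The call was lost without control 1 (log2 fold change 1.22), control 2 (0.94), recipient 5 (1.20) or recipient 6 (0.79), although Itga1 was on average higher in recipients each time. Over the whole plate, 14 of 82 genes (17.1%) were called, 10 of them (12.2%) as higher, and 2 genes (2.44%), Egf and Il12rb2, named here after their values were seen, had an adjusted p of at most 0.05. These counts depended on single animals, with 6 genes higher and 6 lower without control 1, 12 and 1 without control 3, and 15 and 1 without recipient 4. The number with an adjusted p of at most 0.05 in limma was 0 without recipient 6, where 12 were called before adjustment, 1 without control 2 or recipient 5, 3 without control 1 and 6 without control 3. Itga1 was the 9th of 82 genes from the highest log2 fold change.

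Itgb1 differed less between the groups, but with less spread among animals. Its −ΔCt was -1.45, -1.74 and -1.22 in the controls and -1.01, -0.54 and -0.94 in the recipients. With this reference, every recipient was above every control, a separation found for 17 of the 82 genes (20.7%), and the smallest gap was between control 3 and recipient 4. The means were -1.47 ± 0.26 and -0.83 ± 0.25 (SD, n = 3 each), a fold of 1.56 and a log2 fold change of 0.64 with a standard error of 0.49 and an interval from -0.38 to 1.67. In limma p was 0.204, or 0.465 after adjustment, and the exact permutation p was 0.1, the smallest this design allows. The pooled SD of Itgb1 within groups was 0.256, against 0.583 for Itga2 and 0.904 for Itga1. In limma, the variance of each gene is moved towards that of the plate. With its own variance alone, Itgb1 passed the threshold (p = 0.0372, adjusted p = 0.263, against an exact permutation p of 0.1), while Itga1 did not (p = 0.160).

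Itga2 was not called, and the groups differed by less than the spread of the animals. Its −ΔCt was -5.23, -4.60 and -4.30 in the controls and -4.59, -3.75 and -5.09 in the recipients. Recipient 5 was the highest animal, whereas recipient 6 was below controls 2 and 3, so the groups overlapped. The means were -4.71 ± 0.48 and -4.48 ± 0.67 (SD, n = 3 each), a fold of 1.18 and a log2 fold change of 0.24 with a standard error of 0.53 (limma, p = 0.661, adjusted p = 0.847, exact permutation p = 0.6). The interval, from -0.88 to 1.36, leaves room for a rise or a fall of more than the 1.4-fold threshold. The direction turned without control 1 (-0.0242) or recipient 5 (-0.126).

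**Figure D2:**
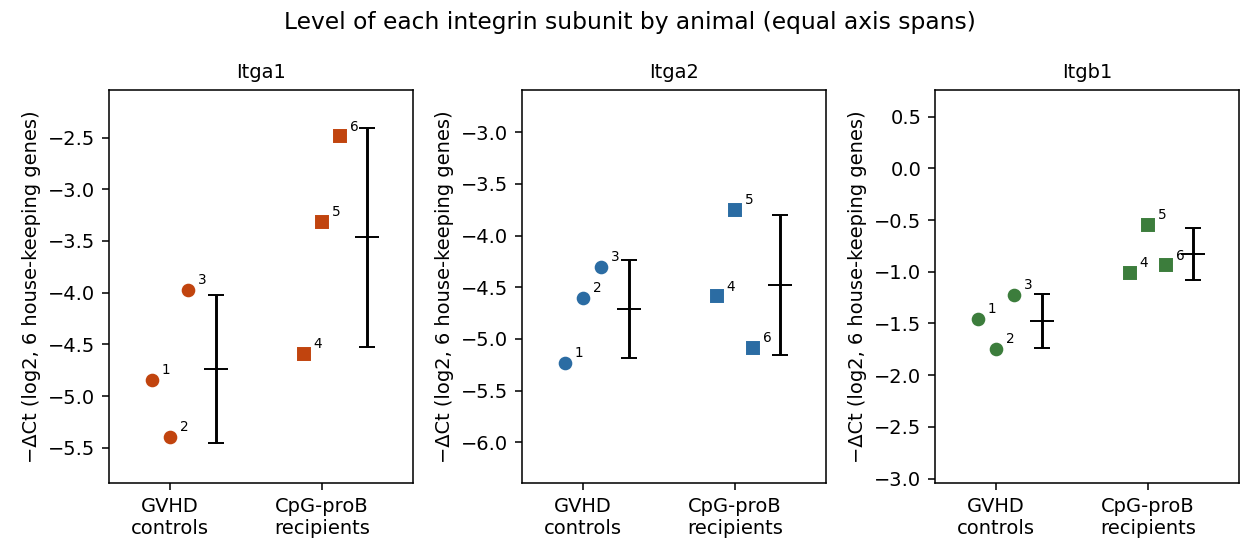
−ΔCt (log2, relative to 6 house-keeping genes) of each subunit, with 1 point per numbered animal and the mean ± SD of each group beside it, on axes of equal span. The recipients lie above every control for Itgb1 only, and the spread within groups is narrowest for Itgb1.

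**Figure D3:**
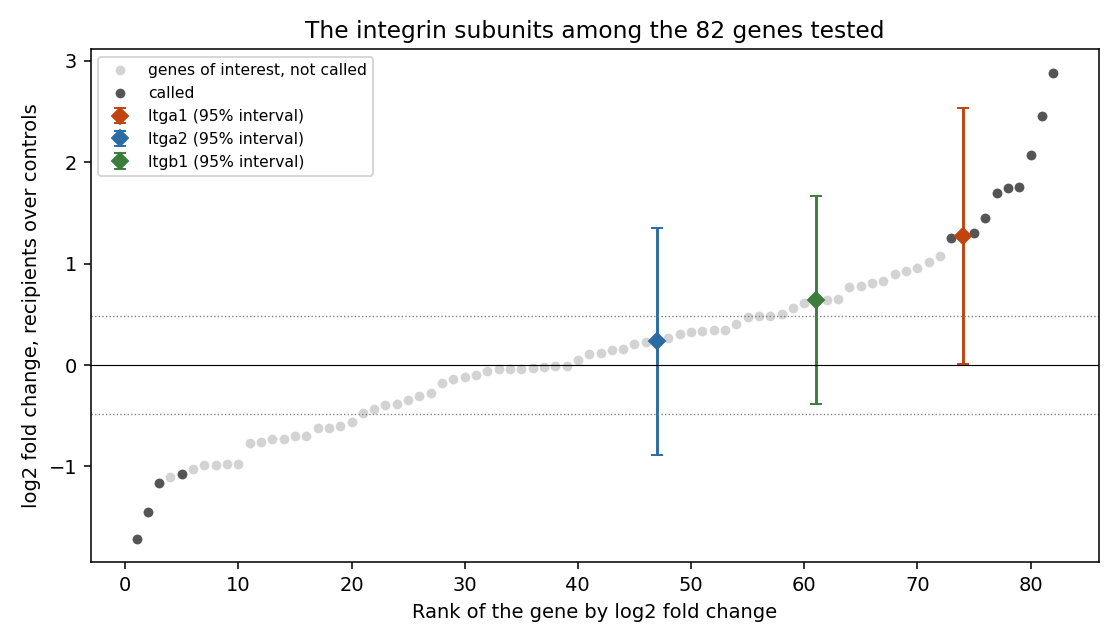
log2 fold change of recipients over controls for the 82 genes tested, ordered from lowest to highest, with the 14 called genes in dark grey (Itga1 in its own colour) and the 1.4-fold threshold as dotted lines. Itga1 (1.27), Itgb1 (0.64) and Itga2 (0.24) are drawn with their 95% intervals, and that of Itga1 starts just above 0 (0.011).

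The choice of reference moved all 3 values together, because it adds the same amount to every gene. Between groups, the house-keeping genes themselves differed in Ct by -0.76 (B2m) to 1.62 (Actb). With all 8 of them, the log2 fold change was 1.57 for Itga1, 0.53 for Itga2 and 0.94 for Itgb1, and Itga1 was again called. With Tbp, B2m and Gusb, the 3 of smallest spread in raw Ct within groups, the values were 0.81, -0.23 and 0.18, and none was called. Spread in raw Ct includes differences in template, and relative to the mean of all 8, B2m had the largest SD (1.02). With Ppia, Tbp and Actb, a set chosen after the data were seen, they were 2.02, 0.99 and 1.39, and Itga1 and Itgb1 were called. The median over the 82 genes was 0.11 with the 6 genes, 0.41 with all 8, -0.35 with Tbp, B2m and Gusb and 0.86 with Ppia, Tbp and Actb. Relative to the genes of interest themselves, by taking their median Ct as the reference, Itga1 had a log2 fold change of 0.90, Itga2 of -0.13 and Itgb1 of 0.27, and none was called. The separation of the groups for Itgb1 was also present with all 8 and with Ppia, Tbp and Actb. It was lost with Tbp, B2m and Gusb, with the median Ct, where recipient 6 (2.72) was below every control (2.81 to 2.98), and without normalization. The order Itga1, Itgb1, Itga2 was the same with each reference, since their differences do not depend on it.

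**Figure D4:**
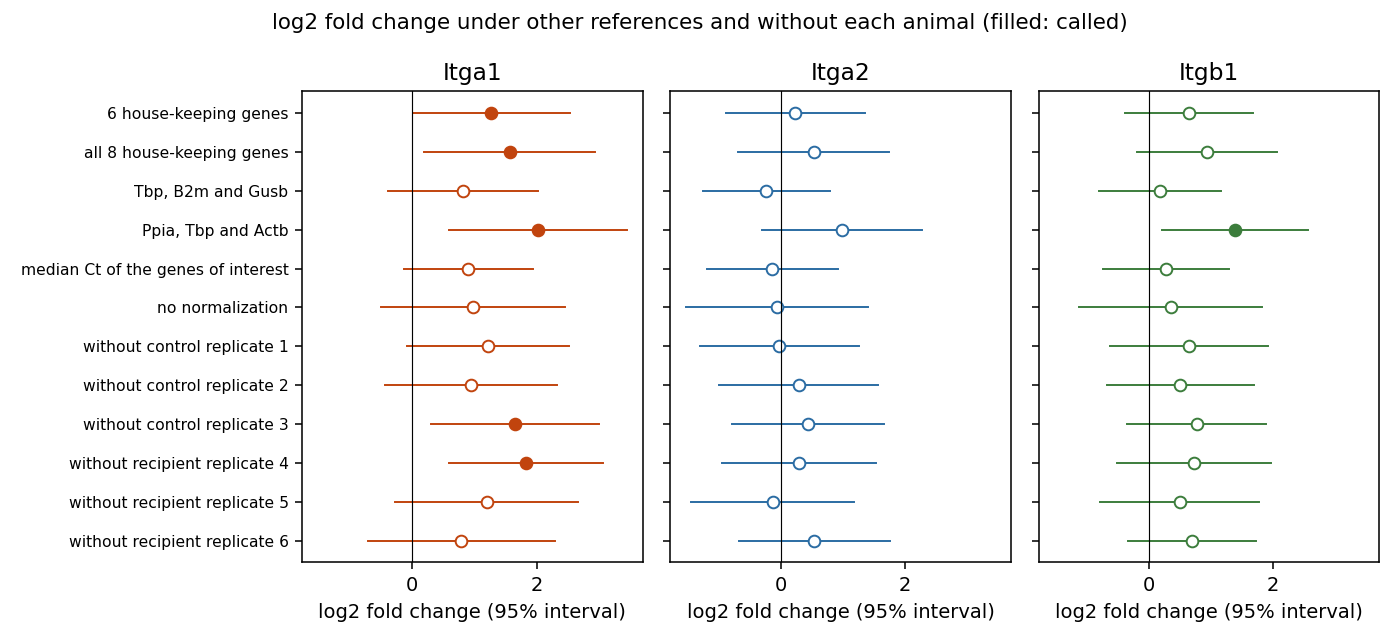
log2 fold change of recipients over controls for each subunit, with its 95% interval, under 6 references and with each animal left out, with filled points where the gene was called. Itga1 is above 0 in every line but called in 5 of 12, Itgb1 is called in 1 (Ppia, Tbp and Actb), and Itga2 is called in none and lies on both sides of 0.

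The Ct difference between an α subunit and Itgb1 in 1 animal needs no house-keeping gene. For Itga1 minus Itgb1 it was 3.39, 3.65 and 2.75 cycles in the controls and 3.58, 2.77 and 1.55 cycles in the recipients. Recipient 6 stood lowest, with more Itga1 per Itgb1 than any other animal, while recipient 4 lay between controls 1 and 2. The means were 3.26 ± 0.463 and 2.63 ± 1.02 cycles (SD, n = 3 each, exact permutation p = 0.5). Expressed as Itga1 relative to Itgb1, the recipients were higher by 0.63 on the log2 scale, with a standard error of 0.57 and an interval from -0.48 to 1.74 (limma with Itgb1 as the sole reference, adjusted p = 0.449). That error is close to the one limma gave every gene in this fit, and with the variance of this ratio alone the interval was -1.17 to 2.43. Leaving out recipient 6 brought this to 0.0883, and leaving out recipient 4 raised it to 1.10. The α1-to-β1 ratio was therefore not shown to differ between the groups, although Itga1 was called and Itgb1 was not.

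For Itga2 minus Itgb1, the difference was 3.78, 2.86 and 3.08 cycles in the controls and 3.58, 3.21 and 4.15 cycles in the recipients. Recipient 6, lowest for Itga1 minus Itgb1, was here the highest of all, and control 1 was next. The means were 3.24 ± 0.480 and 3.65 ± 0.474 cycles (SD, n = 3 each, exact permutation p = 0.4), so Itga2 relative to Itgb1 was -0.41 on the log2 scale in recipients against controls, with an interval from -1.51 to 0.70 (limma, p = 0.470, adjusted p = 0.656), or from -1.49 to 0.67 with its own variance. Without recipient 6 it was -0.155, and without control 1 it was -0.68. With Itgb1 as the reference, 25 of the 81 other genes (30.9%) were called and 25 (30.9%) had groups that did not overlap, but neither α subunit was among them. The number called was 16 without recipient 5.

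Between the α subunits, Itga1 minus Itga2 was -0.39, 0.79 and -0.33 cycles in the controls and 0, -0.44 and -2.60 cycles in the recipients. In 5 animals these neighbouring genes were within 1 cycle of each other, and in recipient 6 Itga1 came 2.60 cycles earlier. The means were 0.0233 ± 0.665 and -1.01 ± 1.39 cycles (SD, n = 3 each, exact permutation p = 0.4). Itga1 relative to Itga2 was thus 1.04 higher in recipients on the log2 scale, with a standard error of 0.72 and an interval from -0.38 to 2.46 (limma with Itga2 as the sole reference, adjusted p = 0.608). In this fit limma gave every gene the same standard error, and with the variance of this ratio alone it was 0.89, with an interval from -1.44 to 3.51. Without recipient 6 it was 0.243, and without recipient 4 it was 1.54. With Itga2 as the reference, 8 of 81 genes (9.88%) were called and 11 (13.6%) had groups that did not overlap, and Itga1 was in neither set. The number called was 2 without recipient 4, 5 without control 1 and 21 without recipient 6.

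**Figure D5:**
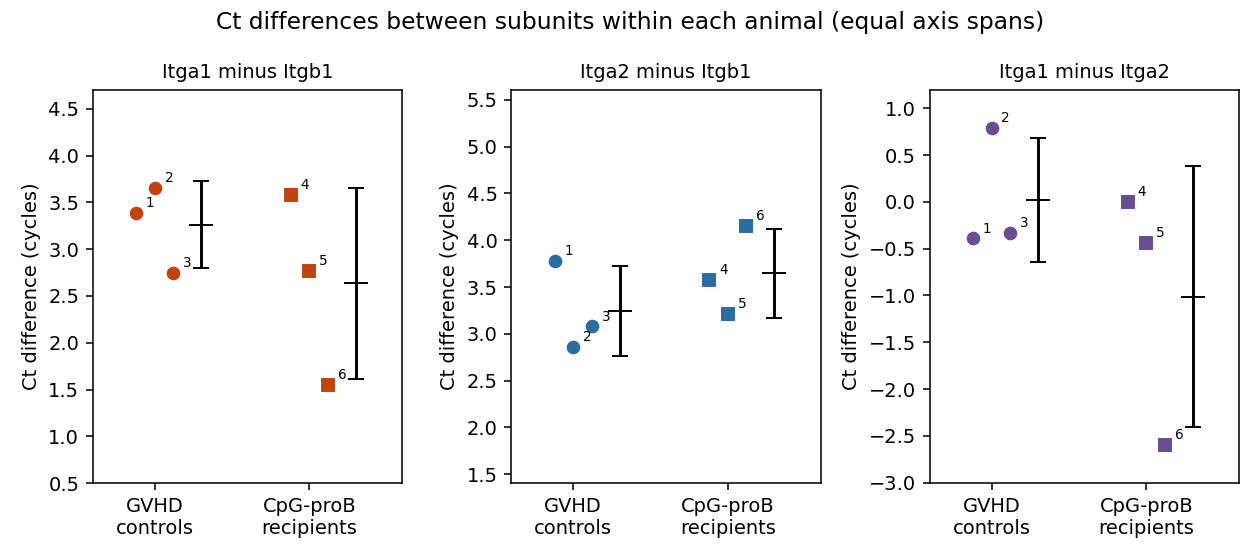
Ct difference (cycles) between subunits within each animal, with 1 point per numbered animal and the mean ± SD of each group, on axes of equal span. The groups overlap for each pair, and recipient 6 is the lowest animal for Itga1 minus Itgb1 (1.55) and Itga1 minus Itga2 (-2.60) and the highest for Itga2 minus Itgb1 (4.15).

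A longer product binds more SYBR Green and crosses the threshold earlier, so the levels of different subunits were compared after adjustment for the length of the product. On that scale, and assuming full efficiency of each primer pair, Itgb1 exceeded Itga1 by 6.90-fold in the controls and 4.46-fold in the recipients. Itgb1 exceeded Itga2 by 7.07-fold and 9.37-fold, respectively. Under the same assumption, Itgb1 was higher than both α subunits in all 6 animals, by the least over Itga1 in recipient 6 (1.07 cycles). The order of Itga1 and Itga2 varied among animals.

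Fibrillar collagens are among the ligands of these receptors, and Col1a2 and Col3a1, chains of collagen I and collagen III, were on the plate. Itga1 relative to Col3a1 was -3.26, -2.88 and -0.87 on the log2 scale in the controls and -0.49, 0.02 and 1.63 in the recipients. Itgb1 relative to Col3a1 was 0.13, 0.77 and 1.88 in the controls and 3.09, 2.79 and 3.18 in the recipients. Itga2 relative to Col3a1 was -3.65, -2.09 and -1.20 in the controls and -0.49, -0.42 and -0.97 in the recipients. For each subunit, all recipients were above all controls, with mean differences of 2.72 for Itga1, 1.69 for Itga2 and 2.09 for Itgb1 (exact permutation p = 0.1 each, 0.15 adjusted over 6 comparisons). However, 40 of 81 genes (49.4%) separated the groups when set against Col3a1, whose own log2 fold change was -1.45.

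Against Col1a2, which differed little between the groups (log2 fold change 0.16), Itga1 was -2.97, -4.30 and -3.35 in the controls and -2.74, -2.88 and -1.65 in the recipients. These groups did not overlap, with a difference of 1.12 (exact permutation p = 0.1, adjusted 0.15), and 21 of 81 genes (25.9%) did not overlap with this reference. The differences of Itga2 (0.08, exact permutation p = 0.8, adjusted 0.8) and Itgb1 (0.487, exact permutation p = 0.4, adjusted 0.48) relative to Col1a2 were within the spread of the animals.

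To find the genes that followed each subunit most closely, the 81 other genes were ranked by the SD, over the 6 animals, of their Ct difference to it. This is a description over 6 animals that share their differences in template. For Itgb1, these were Tgfb2 (SD 0.201 cycles), a ligand of the TGF-β family, the signal transducer Stat6 (0.257) and the survival factor Bcl2 (0.274), where the median over genes was 0.747. For Itga2, they were the transcription factor Sp1 (0.263), the matrix protein Thbs1 (0.419) and the smooth muscle actin Acta2 (0.438), with a median of 0.866. For Itga1, they were the collagen cross-linking enzyme Lox (0.445), the metalloproteinase inhibitor Timp2 (0.481) and the growth factor Vegfa (0.514), with a median of 1.09. The subunits were not each other's nearest genes. Itgb1 was 5th for Itga2 (0.481) and 13th for Itga1 (0.789), and Itga2 was 45th for Itga1 (1.13).

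The counts of called genes by role stand beside 14 of 82 (17.1%) for the plate. Among collagens and proteins of collagen maturation, 1 of 4 genes was called, Col3a1, which was lower in recipients (-1.45, limma adjusted p = 0.180), and the median log2 fold change was -0.43, beside 0.11 over all genes. Lox (1.02) and the collagen chaperone Serpinh1 (-1.02) were not called. Of 3 other matrix proteins that bind integrins of the β1 class, Thbs2 was called as higher (1.75, limma adjusted p = 0.0610), and Thbs1 (0.33) and Ctgf (0.77) were not, with a median of 0.77. Of 7 collagen-cleaving enzymes and inhibitors tested, Mmp9 (2.07) and Timp2 (1.26) were called as higher and none as lower, with a median of 0.34. The Ct was past 28.21 in all 6 animals for Mmp3 and Mmp13 and in 4 animals for Mmp9, a gelatinase, and Timp1. Mmp13 (-0.98), a collagenase, and Mmp14 (0.34), a membrane-bound metalloproteinase, were not called, nor were Mmp2 (0.93), Mmp3 (-0.38) and the inhibitor Timp1 (-0.99), and Mmp1a was not tested for want of Ct values.

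Of the signalling proteins linked to β1 integrins, neither Cav1 (0.95), a membrane scaffold protein, nor Akt1 (0.049) was called. Of 4 ligands and receptors of TGF-β, a cytokine known to induce collagen-binding integrins in fibroblasts, the receptor Tgfbr2 was called as higher (1.45, limma adjusted p = 0.183), and the median was 0.76. Tgfb1 (-0.73), Tgfb2 (0.90) and Tgfbr1 (0.62) were not called.

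The cells that carried the subunits were not identified, and the plate held no keratin gene and no gene specific to endothelium or platelets. Of 3 macrophage markers, Csf1r was called as higher (1.30) and Adgre1 (-0.60) and Cd68 (-0.56) were not, and their summed level relative to the house-keeping genes was 0.103 to 0.225 in the controls and 0.133 to 0.186 in the recipients. None of 5 listed T-cell markers (Ifng, Gzmb, Tbx21, Gata3 and Il17a) was called, with sums of 0.852 to 1.31 and 0.883 to 2.31. Gata3, which skin epithelium also expresses, made up 82.3% to 97.6% of these sums, and the other 4 markers together gave 0.0283 to 0.151 in the controls and 0.0621 to 0.0922 in the recipients. The list does not hold every T-cell gene of the plate, where Il21 was called as lower (-1.17) and Il12rb2 as higher (2.88). Acta2, a marker of myofibroblasts and smooth muscle, was not called (0.48), with levels of 0.618 to 0.944 and 0.830 to 1.44. The fibroblast markers Col1a2 and Col3a1 summed to 0.607 to 0.766 and 0.336 to 0.840. Fcer2a, the B-cell marker, was called as lower (-1.72) but had a Ct past 28.21 in all 6 animals, and Kit, a marker of mast cells and melanocytes, was not tested. The part of these cell types in the values of the subunits was not tested.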

How the data were processed

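Skin RNA of 3 GVHD controls and 3 CpG-proB recipients, grouped by the labels, was measured by qRT-PCR. The authors reverse-transcribed 1 ng of RNA with random primers, ran the PCR in SYBR Green and deposited a Ct in cycles for each well, not normalized. A second file of theirs, with ΔΔCt and fold values of their own comparison, entered no test. Wells were named through the authors' plate map. Their methods state 6 unnamed house-keeping genes. The set used here (Ppia, Tbp, B2m, Rplp0, Tfrc and Gusb) was found by an earlier analysis from that second file.

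−ΔCt of 82 genes with at least 2 Ct values per group was compared with limma 3.58.1 (lmFit and eBayes, R 4.3.3). The house-keeping reference gave 12.7 prior degrees of freedom, and p was adjusted by Benjamini-Hochberg over all genes. Two-sided exact permutation tests over animals were run beside it (numpy 2.4.6, Python 3.11.15). Kit and Mmp1a were not tested. For ratios, 1 subunit was the sole reference. Amplification efficiency was not measured. The fit was tested on simulated data. Alternatives replaced the reference, variance model, thresholds, filter, missing wells and animals. The genes named are the subunits, lists by role and the 3 genes nearest to each subunit. The subunits and lists were chosen with earlier results of these data known. Promoters are from RefSeq (GRCm38.p6), and 3 of 3 genes matched.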

Additional observations from a re-analysis of the deposited data

How the results depend on the processing

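Itga1 was higher in recipients under the 11 alternatives that can move its estimate, and its call was lost under 9 of all 15. Its log2 fold change was 0.81 with Tbp, B2m and Gusb as reference, 0.90 with the median Ct, 0.98 without normalization, and 1.27, as before, with its own variance or with missing wells at Ct 40. Leaving out 1 animal each gave 0.785 (without recipient 6) to 1.84 (without recipient 4). Itga2 was not called under any alternative, and its direction was turned with Tbp, B2m and Gusb (-0.23), the median Ct (-0.13) or no normalization (-0.0567), while leaving out animals gave -0.126 to 0.542, below 0 without control 1 (-0.0242) or recipient 5 (-0.126). Itgb1 was higher in recipients under the same 11 and called with its own variance (0.64) and with Ppia, Tbp and Actb (1.39), a reference chosen after seeing the data, but not under the other 13, and it ranged from 0.499 to 0.768 with 1 animal left out. None of the 3 ratios between subunits was called under its 10 alternatives, and none turned with 1 animal left out, the 6 alternatives that can move it.

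The number of genes called, 14 (10 higher), was 22 (6 higher) with Tbp, B2m and Gusb, 22 (7 higher) with the median Ct, 25 (25 higher) with Ppia, Tbp and Actb, 12 (12 higher) with all 8 house-keeping genes, 6 (3 higher) without normalization, and 11 to 16 with 1 animal left out. Alternatives for the counts with a subunit as reference were added after seeing the data. With Itgb1 as reference, 25 genes were called, 15 with each gene's own variance, and 16 to 28 with 1 animal left out (16 without recipient 5). With Itga2, 8 were called, 5 with own variance, and 2 (without recipient 4) to 21 (without recipient 6) with 1 animal left out. The cause of these differences was not tested. No paired analysis was possible because the groups share no replicate numbers. With the genes limited to those of mean Ct below the lowest negative-control well, Itga1 was still called.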
